A study of Mus musculus with 2 samples.

Results

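Interferon regulatory factors (IRFs) are transcription factors that bind interferon-stimulated response elements in DNA and control the genes of the antiviral and interferon responses. Of the 26082 genes listed for primary mouse fibro-adipogenic progenitors (FAPs), 8 were selected by gene name for this account. They are 7 genes of the IRF family (Irf1, Irf2, Irf3, Irf5, Irf7, Irf8 and Irf9) and Batf2, which encodes a leucine zipper factor of the BATF group that can act together with IRF1. All 8 had more than 3 counts in both libraries.

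FAPs are mesenchymal cells of skeletal muscle with the capacity to become adipocytes. Wild-type FAPs received either a TGFBR3 overexpressing plasmid or the vector, and both cultures were labelled as undergoing adipogenic differentiation. The induction medium for these cells held insulin (10 μg/ml), the phosphodiesterase inhibitor IBMX (0.5 mM) and the glucocorticoid dexamethasone (0.25 μM) in DMEM with 20% FBS. Each condition had 1 library of poly(A)-selected RNA, so no test between conditions was possible and every difference given here is a difference between 2 libraries. The study worked with young adult C57BL/6 mice and sorted FAPs from hind limb muscle. The exact age and the sex of the mice, the number of animals behind a library and the time in induction medium are not given in the labels.

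IRF proteins have divided roles. IRF3 and IRF7 are phosphorylated by the kinases TBK1 and IKKε and then switch on type I interferon genes. Secreted interferon acts through its receptor and the JAK kinases to form ISGF3, a complex of IRF9 with STAT proteins, STAT2 among them, that drives the interferon-stimulated genes. IRF1 is an activator with roles in antigen presentation, and IRF2 binds the same sites and mostly holds them back. IRF5 works downstream of Toll-like receptors, and IRF8 is best known from macrophages, dendritic cells and B cells. Irf1, Irf7 and Irf9 are themselves known to be induced by interferon.

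The sequence before the start site of these genes is shown because 2 well-known interferon-related motifs, the core of the interferon-stimulated response element (ISRE, GAAANNGAAA) and the gamma-activated site (GAS, TTCNNNGAA), were searched in it on both strands. RefSeq promoter windows on GRCm38.p6, with 250 bases before and 50 bases from the start site, were held for 7 of the 8 genes, in 10 windows. Among all 32851 windows, 3.44% held the ISRE core and 8.30% held the GAS letters. The windows of Irf1, Irf2 and Irf8 that held a match, and that of Irf7, the gene with the largest difference between the libraries, are printed with matches in capitals. They lie at chr11:53769764-53770063 (plus strand), chr8:46739495-46739794 (plus), chr8:120736108-120736407 (plus) and chr7:141266375-141266674 (minus), respectively.
Irf1: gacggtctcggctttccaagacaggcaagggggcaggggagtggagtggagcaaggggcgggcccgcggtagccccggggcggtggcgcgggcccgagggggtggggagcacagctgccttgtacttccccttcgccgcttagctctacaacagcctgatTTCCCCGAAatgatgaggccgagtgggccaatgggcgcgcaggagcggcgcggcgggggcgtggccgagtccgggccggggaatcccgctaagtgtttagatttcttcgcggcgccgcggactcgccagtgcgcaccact
Irf2: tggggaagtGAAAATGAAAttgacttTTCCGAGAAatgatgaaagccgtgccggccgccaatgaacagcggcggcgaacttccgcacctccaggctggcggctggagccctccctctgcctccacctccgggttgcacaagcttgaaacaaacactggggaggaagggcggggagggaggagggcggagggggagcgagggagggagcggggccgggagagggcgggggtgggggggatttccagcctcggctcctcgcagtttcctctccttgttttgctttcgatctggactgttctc
Irf8: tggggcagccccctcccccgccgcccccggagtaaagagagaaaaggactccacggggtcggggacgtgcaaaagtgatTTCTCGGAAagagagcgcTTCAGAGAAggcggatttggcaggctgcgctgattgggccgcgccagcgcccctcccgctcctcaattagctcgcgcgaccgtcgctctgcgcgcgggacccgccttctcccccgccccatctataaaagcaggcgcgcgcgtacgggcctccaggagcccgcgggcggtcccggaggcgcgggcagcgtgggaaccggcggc
Irf7: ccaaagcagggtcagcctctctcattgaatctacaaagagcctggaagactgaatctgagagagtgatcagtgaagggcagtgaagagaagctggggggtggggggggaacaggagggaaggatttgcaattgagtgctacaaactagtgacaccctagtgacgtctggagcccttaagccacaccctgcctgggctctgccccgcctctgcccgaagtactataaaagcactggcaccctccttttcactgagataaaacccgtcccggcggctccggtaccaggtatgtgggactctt

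The Irf1 window held a GAS match 90 bases before the start site. The Irf2 window held an ISRE core 241 bases and a GAS match 224 bases before the start, and the Irf8 window held GAS matches at 171 and 153 bases before it. The windows of Irf3, Irf5, Irf7 and Irf9, and the second windows of Irf1 and Irf8, held neither of these letter patterns. Both Irf9 windows (chr14:55603735-55604034 and chr14:55604329-55604628) lie inside the gene span given below, so the sequence before that span was not searched. The second windows of Irf1 and Irf8 also lie inside their gene spans. A missing match says only that these letters are absent from the window.

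Tgfbr3, the gene on the plasmid, was examined first. It had 16372 counts and an FPKM (fragments scaled by exon length and library total) of 36.9 in the library labelled TGFBR3 overexpression, against 21245 counts and 35.1 in the library labelled vector control, so its label was not visible in its own RNA. The study also ran a real-time PCR of TGFBR3 in FAPs given the plasmid or the vector, whose values its text does not print. The libraries are called by their labels throughout. The direction of every ratio given here rests on those labels, whose correctness was not tested, and how far the count of Tgfbr3 covers RNA made from the plasmid is not given in the sources used here. The counts summed to 62321027 and 83779203. Of the FAP markers, Pdgfra (FPKM of 30.5 and 32.6, overexpression label first), Ly6a (1013 and 706) and Cd34 (20.6 and 25.7) were present in both, while Lum, Pi16 and Dpp4 were at or under 0.27. Col1a1 (467 and 870) and Col3a1 (95.8 and 199) were lower under the overexpression label.

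Because IRFs are abundant in immune cells, markers of those cells were read beside them. Of 13 macrophage and myeloid markers, 6 were at 0 counts in each library, with Spi1, Adgre1, Tyrobp and Fcer1g at 0 in both. Their summed FPKM was 16.1 under the overexpression label and 19.0 under the control label, most of it from Lyz2 (12.2 and 16.4) and Cd68 (2.94 and 2.04). Of the 7 T and NK cell markers sought, the 3 analysed here were at 0 in both. Of the dendritic cell markers, Itgax had 0 and 4 counts, Flt3 had 4 and 0 and Xcr1 had 11 and 4. Zbtb46 had 79 and 180 counts, an FPKM of 0.14 and 0.23. Bst2, which is also an interferon-stimulated gene, had an FPKM of 1038 and 326. Of the B cell markers, Cd79a had 5 and 6 counts and Pax5 had 310 and 81. In bulk RNA, fewer cells of a type and less RNA per cell cannot be told apart.

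Across the 8 genes, 6 were higher and 2 were lower under the overexpression label, although Irf2, counted among the 6, turned negative when a trend over GC content or exon length was removed. The difference is given as the log2 ratio of FPKM + 1, overexpression label over control label, on which a value of 1 is 2-fold for an abundant gene and the change of a low gene is understated. The median of the 8 genes was 0.72, against 0.06 for all 21364 genes with more than 3 counts in either library, 62.0% of which were above 0. Intervals are 95% counting intervals computed with 4 deposited counts taken as 1 read, because counts of 4 and 8 occurred in excess of the counts next to them. They cover counting error only, not the difference between cultures. These intervals lay above 0 for 6 genes (Irf7, Irf9, Batf2, Irf5, Irf1 and Irf2), below 0 for Irf3 and on both sides of 0 for Irf8. How many of all genes tested had intervals clear of 0 was not counted, so this split is not set against a background.

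**Figure D1:**
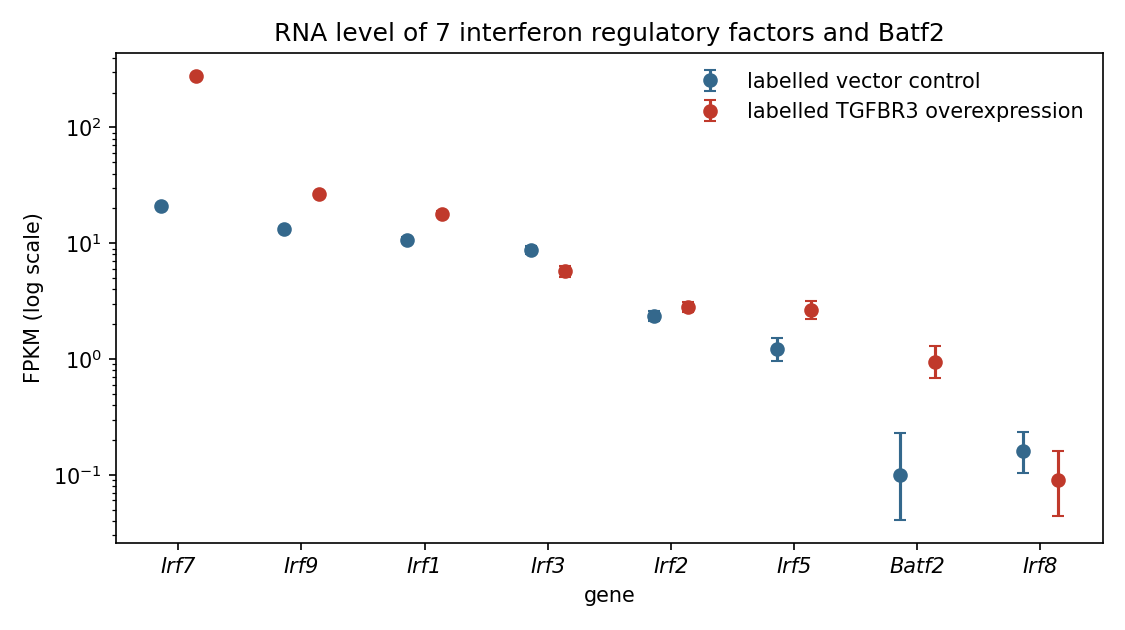
RNA level of each gene as FPKM on a log axis, in the library labelled vector control (blue) and the library labelled TGFBR3 overexpression (red), with bars for the 95% counting interval. The points of Irf7 are 279 and 21.0, while those of Irf8 stay under 0.2 in both libraries with overlapping bars.

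One of the 8 genes, Irf7, was at least 2-fold higher on the FPKM + 1 scale, where 1.73% of the 21364 genes tested (369) were. None of the 8 was at least 2-fold lower, where 0.58% of the genes tested (124) were. On counts scaled by the library totals, without the added 1, Irf7, Batf2, Irf5 and Irf9 were at least 2-fold higher (4 of 8), where 13.4% of the 17985 genes with more than 3 counts in both libraries were. None of the 8 was at least 2-fold lower on that scale, where 4.22% of genes were. The median gene, over 10626 genes at an FPKM of 1 or more in each library, was at 0.13 on the FPKM + 1 scale, so values centred on it are also given for single genes and lists. Centring put 1.29% of the genes tested at least 2-fold higher and 0.913% at least 2-fold lower, with Irf7 again the 1 gene of the 8 past the line.

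**Figure D2:**
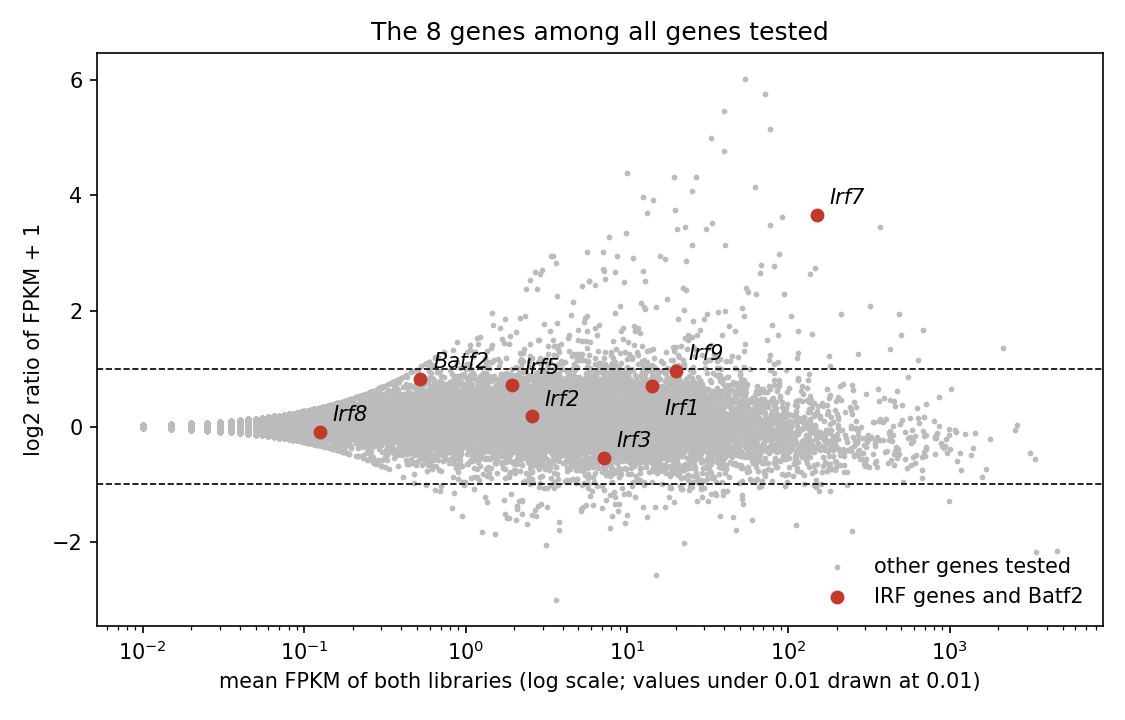
Log2 ratio of FPKM + 1 against the mean FPKM of both libraries (log axis) for all genes tested (grey) and for the 8 genes (red), with dashed lines at the 2-fold thresholds. Irf7 lies far above the upper line at 3.67 and the other 7 lie between the lines, from -0.54 for Irf3 to 0.97 for Irf9.

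Irf7 (ENSMUSG00000025498, chr7:141262706-141266481, minus strand, mm10) encodes the factor that amplifies type I interferon production. It had 71392 counts and an FPKM of 279 (interval 275 to 283) in the library labelled TGFBR3 overexpression. In the library labelled vector control it had 7326 counts and an FPKM of 21.0 (20.0 to 22.0). The ratio was 13.3-fold (12.6 to 13.9), or 3.67 as the log2 ratio of FPKM + 1 (3.60 to 3.74) and 3.54 after centring on the median gene. Only 15 of the genes tested had a larger value. Irf7 shares 45 bases of exon with Phrf1 on the opposite strand, whose FPKM was 7.85 and 7.64, and its same-strand neighbour Cdhr5 had 0 and 4 counts, so the overlapping gene did not share the difference.

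The protein-coding genes whose ratios were nearest to that of Irf7, among those with a mean FPKM of at least 1, were Mpeg1, Ifit3b and Ifit2. Mpeg1, a pore-forming protein gene best known from macrophages, had an FPKM of 25.4 and 1.03 and a log2 ratio of 3.70. Ifit3b had 170 and 12.8 (3.63), and Ifit2 had 62.3 and 4.53 (3.52). Both Ifit genes encode antiviral interferon-induced proteins. The likeness is measured over 1 pair of libraries.

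Irf3 (ENSMUSG00000003184, chr7:44997648-45002848, plus strand) encodes the constitutive factor that shares its activating kinases with IRF7. It differed in the opposite direction from Irf7, with 1339 counts and an FPKM of 5.71 (5.13 to 6.38) under the overexpression label and 2793 counts and 8.76 (8.14 to 9.46) under the control label. The level was 1.53-fold lower (1.34 to 1.75), with a log2 ratio of FPKM + 1 of -0.54 (-0.70 to -0.37) and -0.67 after centring. The ratio was smaller for 734 of the genes tested. Irf3 overlaps Bcl2l12 on the opposite strand over 88 bases of exon, and Bcl2l12 was lower as well, at 277 and 577 counts. The methods of the study name a stranded library kit. The strand setting of the counting is not given in the sources used here, so reads in the shared stretch cannot be assigned between them. That stretch is 88 of the 3442 exon bases of Irf3, and its part in the difference was not tested.

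Within a library, the ratio of one gene to another is not touched by scaling between libraries. The FPKM of Irf7 was 48.8 times that of Irf3 (43.6 to 54.3) under the overexpression label and 2.40 times (2.19 to 2.61) under the control label. Of the adaptors and kinases that act before both factors, 14 of 16 were above 0 on the FPKM + 1 scale. Of all genes tested, 62.0% were above 0. The median of the list was 0.26 (0.13 after centring), and Ikbkb, Tbkbp1 and Ticam1 were above 0 only before centring. On that scale 0 of the list were at least 2-fold higher or lower, against the 1.73% and 0.58% of all genes given above. On scaled counts 1 of the 15 that could be computed, Ikbke, was at least 2-fold higher, where 13.4% of all genes were. Its log2 ratio was 1.02 (0.91 to 1.12), an interval that holds the 2-fold line. The largest were Ikbke, which encodes IKKε (FPKM of 12.4 and 6.12), Chuk (8.33 and 4.54), Azi2 (7.27 and 4.50) and Traf6 (2.62 and 1.41). Tbk1, named for its role after its values were seen, had 10.2 and 6.57.

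Of the 21 interferon ligand genes sought, 3 were analysed here and the others were not, so no statement covers the ligands as a class. Ifnb1 had 9 counts under the overexpression label and 3 under the control label, Ifna4 had 0 in both, and Ifnz had 56 and 43 counts. On scaled counts the interval of the log2 ratio ran from -2.27 to 9.34 for Ifnb1 and from -0.43 to 2.12 for Ifnz. Both intervals hold 0, so no difference in the RNA of Ifnb1 or Ifnz was detected. For Ifnb1 a large one would not have been seen at this depth. The interval of Ifnz is narrower but still holds values past 2-fold.

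Genes listed as IRF3 and IRF7 targets were higher as a group by count. On the FPKM + 1 scale 8 of 10 were at least 2-fold higher and 0 lower, against 1.73% and 0.58% of all genes. The median was 3.35 (3.23 after centring). The chemokine gene Ccl5 had an FPKM of 106 and 0.66. Cxcl10 had 48.8 and 1.95, Ifit3 had 673 and 60.9, and Ifit2 is given above. Isg20 (0.62) and Ifnb1 (0.17) did not reach 2-fold on that scale.

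Irf9 (ENSMUSG00000002325, chr14:55603571-55610030, plus strand), the DNA-binding subunit of ISGF3, had the second largest log2 ratio of FPKM + 1 among the 8 genes. It had 9802 counts and an FPKM of 26.8 (25.8 to 27.9) under the overexpression label against 6565 counts and 13.2 (12.6 to 13.8) under the control label. The level was 2.03-fold higher (1.91 to 2.17), and the log2 ratio of FPKM + 1 was 0.97 (0.89 to 1.06), or 0.84 after centring. It was larger for 403 of the genes tested. The value thus lay at the 2-fold line and its side of it depended on the added 1. Irf9 shares 123 bases of exon with Rnf31 on the same strand, which had an FPKM of 6.28 and 3.72, and 4.82% of the 31-base words in its transcripts also occur in transcripts of other genes.

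Stat2, which encodes a partner of IRF9 in ISGF3, differed more than Irf9. It had an FPKM of 48.5 and 17.6 and a log2 ratio of FPKM + 1 of 1.41 (1.34 to 1.48), an interval that did not overlap that of Irf9. Per FPKM of Stat2 there was accordingly less Irf9 under the overexpression label, at 0.553 (0.527 to 0.581) against 0.750 (0.704 to 0.799). Both genes were higher in the same library, but in unequal proportion. Among 10 receptor and JAK-STAT genes, Stat2 alone was at least 2-fold higher and 0 were lower, against 1.73% and 0.58% of all genes. The median was 0.05 (-0.08 after centring). Jak2 had an FPKM of 8.35 and 4.43, and Jak1 had 60.3 and 44.7.

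ISGF3 targets formed the list with the highest share past the threshold. On the FPKM + 1 scale 18 of 19 were at least 2-fold higher and 0 lower, against 1.73% and 0.58% of all genes. The median was 1.76 (1.64 after centring), and the exception was Eif2ak2 at 0.89. The antiviral gene Oasl1 had an FPKM of 42.6 and 2.99, Mx1 had 5.91 and 0.06, and Mx2 had 13.2 and 1.20. Usp18, which encodes a protease that dampens interferon receptor signalling, had 142 and 20.0. It also led the list of negative regulators, of which 2 of 11, Usp18 and Trim21 (14.4 and 3.90), were at least 2-fold higher. None was lower, where the shares of all genes were again 1.73% and 0.58%, and the median was 0.24 (0.12 after centring). Pias1 (4.05 and 2.75) and Atf3 (0.76 and 0.41) followed with smaller differences.

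Irf1 (ENSMUSG00000018899, chr11:53770014-53778374, plus strand) and Irf2 (ENSMUSG00000031627, chr8:46739732-46847458, plus strand) encode the activator and the repressor of shared sites. Irf1 had 4865 counts and an FPKM of 18.0 (17.0 to 19.1) under the overexpression label against 3911 counts and 10.6 (9.99 to 11.3) under the control label, which is 1.69-fold higher (1.56 to 1.84). Its log2 ratio of FPKM + 1 was 0.71 (0.59 to 0.82), with 0.58 after centring and 983 genes above it. Irf2 had 1411 counts and an FPKM of 2.81 (2.53 to 3.12) against 1613 counts and 2.36 (2.13 to 2.60), a log2 ratio of 0.18 (0.03 to 0.33). After centring, Irf2 was at 0.06, and it turned negative, to -0.11 and -0.04, when the trends over GC content and exon length were removed, so no direction is given for it.

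The activator was thus higher relative to the repressor in one library. The FPKM of Irf1 was 6.42 times that of Irf2 (5.69 to 7.24) under the overexpression label and 4.51 times (4.01 to 5.08) under the control label. Neighbours of Irf1 also had higher values there, since Rad50, on its left, had an FPKM of 4.38 and 2.63, and Gm17334, which shares 135 bases of exon with it on the opposite strand, had 113 and 43 counts. For Irf2, the lncRNA gene Gm16675 that starts 217 bases away on the opposite strand had 102 and 85 counts.

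All 21 genes listed as IRF1 targets had values above 0, where 62.0% of all genes tested were, although the intervals of Socs1 and Ciita held 0. On the FPKM + 1 scale 13 of them were at least 2-fold higher and 0 lower, against 1.73% and 0.58% of all genes. The median was 1.31 (1.18 after centring). Cxcl9, a chemokine for T cells, had an FPKM of 141 and 1.61. Cxcl10, which also stands in the IRF3 and IRF7 list, is given above, and Gbp2, a GTPase gene of cell defence, had 235 and 36.7. Cd274, which encodes the immune checkpoint ligand PD-L1, had 9.57 and 0.95. Ciita, the master activator of MHC class II genes, was at 0.01 on the FPKM + 1 scale. Genes of MHC class I presentation such as Psmb9 (9.18 and 1.78) lay between these ends.

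Batf2 (ENSMUSG00000039699, chr19:6140983-6172476, plus strand) was a low gene with a large ratio. It had 164 counts and an FPKM of 0.95 (0.69 to 1.30) under the overexpression label against 25 counts and 0.10 (0.04 to 0.23) under the control label. The log2 ratio was 0.83 (0.58 to 0.97) for FPKM + 1 and 3.16 (1.94 to 4.65) for scaled counts, the latter being 8.93-fold (3.82 to 25.1). Only Irf7 among the 8 genes had a larger ratio on scaled counts, and the intervals of Batf2 and Irf7 on that scale overlapped. Arl2, which shares 51 bases of exon with Batf2 on the opposite strand, was lower, at 9.60 and 13.8. Batf2 lies well under its partner Irf1, at 0.053 of its FPKM under the overexpression label and 0.0094 under the control label.

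Other factors that act with IRF proteins differed in both directions. Of 11 partner genes tested, 1, Stat2, was at least 2-fold higher and 0 were lower, against 1.73% and 0.58% of all genes. The median was 0.04 (-0.08 after centring). Spi1, which encodes the myeloid partner PU.1, had 0 counts in both libraries. Batf had 5 in each, and Batf3 had 0 under the overexpression label and 6 under the control label. The coactivator genes Ep300 (FPKM of 4.18 and 2.40, log2 ratio of FPKM + 1 of 0.61) and Crebbp (2.77 and 1.58, 0.55) were higher under the overexpression label. The AP-1 genes Jund (111 and 160) and Junb (61.0 and 80.6) were lower, with log2 ratios of FPKM + 1 of -0.52 (-0.58 to -0.46) and -0.40 (-0.48 to -0.32).

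**Figure D3:**
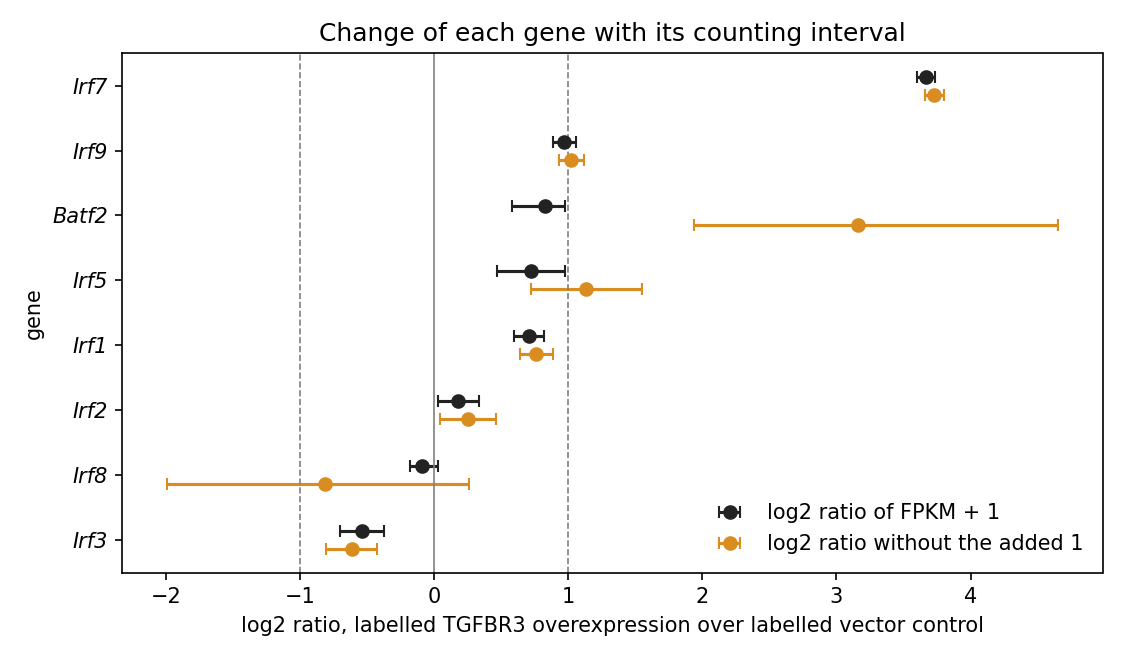
Log2 ratio of each gene between the libraries with its 95% counting interval, on the FPKM + 1 scale (black) and on scaled counts without the added 1 (orange), with dashed lines at 2-fold. The scales nearly coincide for Irf7, Irf9 and Irf1, and part for Batf2 (0.83 and 3.16), Irf5 (0.72 and 1.13) and Irf8 (-0.09 and -0.81).

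Irf5 (ENSMUSG00000029771, chr6:29526625-29541871, plus strand) had 525 counts and an FPKM of 2.65 (2.23 to 3.16) under the overexpression label and 326 counts and 1.21 (0.96 to 1.51) under the control label. The intervals of the levels did not overlap. The ratio was 2.19-fold (1.65 to 2.93) on scaled counts, and the log2 ratio of FPKM + 1 was 0.72 (0.47 to 0.98), or 0.60 after centring, with 928 genes above it. Irf5 shares 411 bases of exon with Tnpo3 on the opposite strand, and 12.3% of its 31-base words occur in Tnpo3 transcripts. Tnpo3 had an FPKM of 5.28 and 4.4, a log2 ratio of FPKM + 1 of 0.22.

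Irf8 (ENSMUSG00000041515, chr8:120736358-120756694, plus strand) was the lowest of the 8 genes under the overexpression label, with 43 counts and an FPKM of 0.09 (0.04 to 0.16). Under the control label it had 103 counts and 0.16 (0.10 to 0.23). The level intervals overlapped, and the log2 ratio of FPKM + 1 was -0.09 (-0.18 to 0.03). If each deposited count were 1 read, that interval would run from -0.14 to -0.03, so whether it holds 0 turns on how the counts were made. On scaled counts the log2 ratio was -0.81 (-1.99 to 0.26). Of the myeloid markers read beside it, Lyz2 was lower under the overexpression label, with an FPKM of 12.2 and 16.4. Cd68 (2.94 and 2.04) and Csf1r (0.46 and 0.39) were higher there, with intervals of the log2 ratio that held 0. Of the 13 markers, 6 were at 0 counts in each library. The part of myeloid cells in the Irf8 level was not tested.

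The count of IRF5 and IRF8 targets past 2-fold depended on the scale. With the added 1, the cytokine gene Il6 (FPKM of 8.05 and 1.83) was at least 2-fold higher, 1 gene of 11. The share of all genes was 1.73%, and the median of the list was 0.12 (-0.003 after centring). On scaled counts 6 of the 8 that could be computed were at least 2-fold higher, against 13.4% of all genes, and the median was 1.71. Il18 had 201 and 116 counts, and the lysosomal protease gene Ctss had 70 and 18. Cst3 was abundant in both, with an FPKM of 417 and 308. Related genes on the list were at 0 or nearly flat. Irf4 had 0 counts in both libraries, and the IRF2-binding protein genes had an FPKM of 9.87 and 10.8 (Irf2bp1), 14.1 and 14.5 (Irf2bp2) and 18.0 and 15.7 (Irf2bpl).

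**Figure D4:**
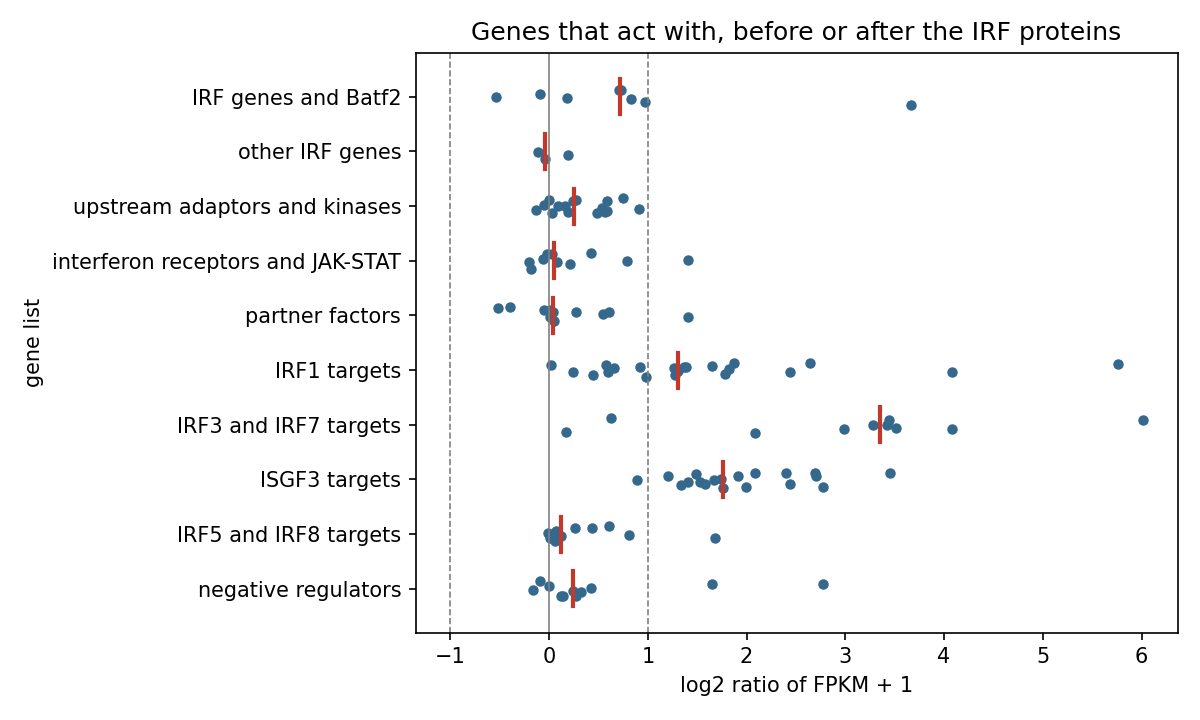
Log2 ratio of FPKM + 1 for each gene (points) of the 8 genes and of 9 lists of genes related to IRF action, with the list median as a red bar and dashed lines at 2-fold. The medians are 1.31, 3.35 and 1.76 for the IRF1, IRF3 and IRF7, and ISGF3 target lists, while the lists of kinases, receptors, partners, IRF5 and IRF8 targets and regulators lie between 0.04 and 0.26. On scaled counts the median of the IRF5 and IRF8 targets is 1.71.

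The make-up of the family differed between the libraries, mostly through Irf7. Summed over the 8 genes, the FPKM was 336 under the overexpression label and 57.4 under the control label, and Irf7 made up 83.0% and 36.6% of it. Without Irf7 the sums were 57.1 and 36.4. The share of Irf9 was 7.99% and 23.0%, that of Irf1 was 5.37% and 18.5%, and that of Irf3 was 1.70% and 15.3%. The order of the levels was nevertheless alike, running from Irf7 through Irf9, Irf1, Irf3 and Irf2 to Irf5 in both libraries, and the last 2 places went to Batf2 then Irf8 under the overexpression label and to Irf8 then Batf2 under the control label. Neighbours in that order with overlapping counting intervals were Irf2 and Irf5 under the overexpression label and Irf8 and Batf2 under the control label.

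**Figure D5:**
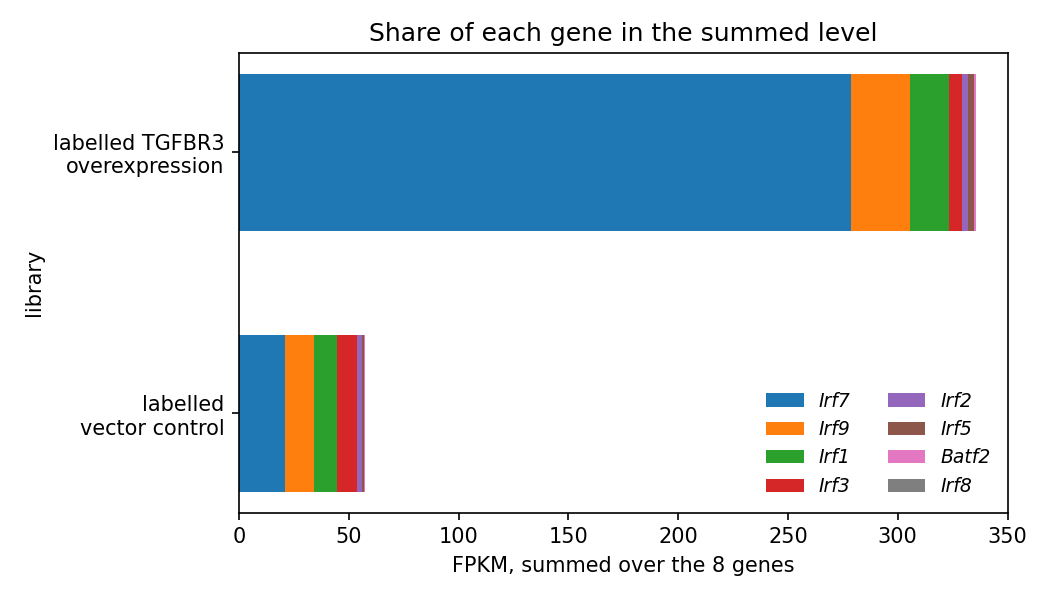
FPKM summed over the 8 genes in each library, with a coloured segment for each gene on an axis that starts at 0. The bar is 336 under the overexpression label and 57.4 under the control label, and the Irf7 segment alone is 279 and 21.0.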

How the data were processed

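RNA from 2 libraries, 1 per condition, was analysed. Per gene, the authors deposited a raw count and an FPKM value with 2 decimals. The labels name cutadapt 1.9, HISAT2 2.2.1, StringTie 2.1.6 and mm10, whereas the methods of the study name STAR and FeatureCounts, and the annotation release and strand setting of the counting are not given in the sources used here. For 98.7% and 98.8% of genes above an FPKM of 5, count over exon length and 1 library total gave the deposited FPKM to within 1%, the totals being 67868752 and 92424268. The log2 ratio of FPKM + 1 (pseudocount 1) was the main measure, with a 2-fold threshold, a floor of 3 counts and no test. Genes at 4 counts (913 and 930) outnumbered those at 3 (458 and 416) and 5 (323 and 271). Exact Clopper-Pearson intervals at the 95% level were therefore computed on counts divided by 4, and scaled-count ratios were added, both after the values were seen. Reads are not independent molecules, so intervals cover counting error only.

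The 8 genes and the lists were chosen with earlier results of these data known, and lists share genes. Some related genes are not reported here. Genes named are the 8, Tgfbr3, up to 4 genes per list by size of ratio, complex partners, overlapping and adjoining genes, and the 3 nearest in ratio to Irf7. Any other gene is an example chosen after its values were seen. Coordinates are GENCODE M21 on mm10, which holds 99.7% of the gene identifiers. Alternatives were other pseudocounts, centring, rescaling, CPM from counts, GC and length trends (median in 20 bins), other thresholds and filters. The design assumed FPKM alone, and the counts served the intervals and alternatives. Calculations used Python 3.11.15, NumPy 2.4.6, pandas 2.3.3 and SciPy 1.17.1 and were tested on simulated data.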

Additional observations from a re-analysis of the deposited data

How the results depend on the processing

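With 1 library per condition, no library could be left out and no replicate error exists. No paired analysis was possible because each condition has 1 library. Under 9 settings, 7 of the 8 genes kept the sign of their log2 ratio, the exception being Irf2. Irf7 was the 1 gene past 2-fold on the main measure, so a reversal past 2-fold could be recorded for it alone. Its log2 ratio ran from 3.54 to 3.78 under those settings. Of the values per gene, 23 stayed within the counting interval on deposited counts and 49 moved beyond it. Centred on the median gene, the log2 ratios were 0.58 (Irf1), 0.055 (Irf2), -0.67 (Irf3), 0.60 (Irf5), 3.54 (Irf7), -0.22 (Irf8), 0.84 (Irf9), 0.70 (Batf2), and 0.913% of all genes were at least 2-fold lower. List medians were then -0.16 (other IRF genes), 0.13 (upstream adaptors and kinases), -0.075 (interferon receptors and JAK-STAT), -0.084 (partner factors), 1.18 (IRF1 targets), 3.23 (IRF3 and IRF7 targets), 1.64 (ISGF3 targets), -0.0031 (IRF5 and IRF8 targets), 0.12 (negative regulators). With FPKM rescaled to a common sum, the log2 ratios were 0.81 (Irf1), 0.29 (Irf2), 1.03 (Irf5), 3.78 (Irf7), -0.22 (Irf8), 1.08 (Irf9), 1.70 (Batf2), 4 of the 8 genes were at least 2-fold higher, and 4.92% of all genes were at least 2-fold higher and 1.11% of all genes were at least 2-fold lower. With the length trend removed, the log2 ratios were 0.60 (Irf1), -0.036 (Irf2), -0.66 (Irf3), 3.56 (Irf7), -0.31 (Irf8), 0.79 (Irf9). With the GC trend removed, the log2 ratios were -0.11 (Irf2), 3.71 (Irf7), -0.18 (Irf8), 0.85 (Irf9), 0.91 (Batf2), and 1.11% of all genes were at least 2-fold higher. With a pseudocount of 0.1, the log2 ratios were 1.07 (Irf5), 3.73 (Irf7), -0.45 (Irf8), 1.02 (Irf9), 2.39 (Batf2), 4 of the 8 genes were at least 2-fold higher, and 8.95% of all genes were at least 2-fold higher and 3.17% of all genes were at least 2-fold lower. With a pseudocount of 0.01, the log2 ratios were 1.12 (Irf5), 3.73 (Irf7), -0.77 (Irf8), 1.02 (Irf9), 3.13 (Batf2), 4 of the 8 genes were at least 2-fold higher, and 19.1% of all genes were at least 2-fold higher and 9.82% of all genes were at least 2-fold lower. With no pseudocount, the log2 ratios were 1.13 (Irf5), 3.73 (Irf7), -0.83 (Irf8), 1.02 (Irf9), 3.25 (Batf2), 4 of the 8 genes were at least 2-fold higher, and 14% of all genes were at least 2-fold higher and 4.69% of all genes were at least 2-fold lower. List medians were then 0.30 (partner factors), 1.59 (IRF1 targets), 3.78 (IRF3 and IRF7 targets), 1.96 (ISGF3 targets), 1.86 (IRF5 and IRF8 targets). On CPM, the log2 ratios were 0.95 (Irf5), -0.40 (Irf8), 1.48 (Batf2), 2 of the 8 genes were at least 2-fold higher, and 2.99% of all genes were at least 2-fold higher and 0.922% of all genes were at least 2-fold lower. On scaled counts without a pseudocount, the log2 ratios were 1.13 (Irf5), 3.73 (Irf7), -0.81 (Irf8), 1.02 (Irf9), 3.16 (Batf2), 4 of the 8 genes were at least 2-fold higher, and 13.4% of all genes were at least 2-fold higher and 4.22% of all genes were at least 2-fold lower. Centring thus moved the split of all genes past 2-fold from 1.73% higher and 0.58% lower to 1.29% higher and 0.913% lower. At 1.5-fold, 5 of the 8 genes, 7.89% of all genes higher and 2.85% lower passed, and at 4-fold 0.36% and 0.0281% of all genes did. With genes under a mean FPKM of 1 left out, 3.14% were higher and 1.03% lower. As ratios of counts, Irf1 to Irf2 was 3.45 and 2.42 (overexpression label first), and Irf7 to Irf3 was 2.62 under the control label. Low counts limit Batf2 and Irf8, whose ratios depended most on the added 1. The cause of other shifts was not tested.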

Other observations

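Adipocyte marker genes lay mostly lower in the library labelled TGFBR3 overexpression. Both libraries carry the differentiation label, so a comparison between them cannot check that label. Adipoq, which encodes adiponectin, had 534 counts and an FPKM of 5.69 against 1660 counts and 13.01 in the library labelled vector control. Cidec had 0.49 and 1.23 and Plin1 had 1.15 and 1.98. Fabp4 differed little, at 12.6 and 13.9, while Pparg was higher, at 2.19 and 1.61. The muscle marker Des had 290 and 261 counts, and Myog had 0 and 8. Of the endothelial markers, Kdr had 262 and 65 counts and Cdh5 had 165 and 328.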
